A study of Mus musculus with 36 samples.

Results

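The genes S100a8, S100a9, Csf3r, Cxcr2, Retnlg, Ly6g, Ngp, Camp, Mpo and Il1r2, which are known from neutrophils, were followed in mouse lung after exposure to crude oil and oil dispersants. They were chosen by name, as the rows with these symbols in both the female and the male count table, and all 10 were found among the 18691 gene names listed in either table. The data are RNA-seq counts from the left lungs of 36 wild-type C57BL/6 mice, 3 female and 3 male in each of 6 groups. The groups received saline (the control), oil (MC252 crude oil), Corexit9500, Corexit9527, 9500+oil or 9527+oil, the Corexits being dispersants used on oil spills and the last 2 groups a dispersant mixed with oil. Mice were 8 weeks old at the first of their doses, which were given on days 0, 7 and 13, and they were killed on day 14. Each dose was 50 µL of a 0.1 dilution of the saline-accommodated fraction, which for oil is the saline phase left after it was mixed with a balanced salt solution and, for the groups with a dispersant, the whole mixture. The study's methods name aspiration from the throat, whereas its public description names instillation into the trachea. Female and male mice were treated on separate occasions, so a difference between the sexes cannot be told apart from one between these rounds of treatment.

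Neutrophils are short-lived white blood cells that leave the bone marrow mature and enter tissue within hours of an injury. While they develop, they fill granules in a fixed order: myeloperoxidase and other enzymes of the primary granules are made first, the proteins of the secondary granules, such as neutrophilic granule protein and cathelicidin, later. Mature cells have stopped making most granule proteins, but carry mRNA of the calcium-binding proteins S100a8 and S100a9 and of receptors for growth factor and chemokines. The lung holds a large pool of neutrophils in its capillaries even when it is healthy. In bulk RNA, fewer neutrophils and less of a neutrophil mRNA per cell cannot be told apart.

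Libraries held 17501180 to 30011557 counts on genes. Levels are given in CPM, the counts of a gene per 1000000 counts of its library after TMM scaling, and differences as log2 fold changes with their standard error (SE). In 4 female libraries over 20% of counts fell on mitochondrial genes (saline mouse 3, oil mouse 6, Corexit9527 mouse 11 and 9500+oil mouse 14, with 20.67% to 45.09%), against 5.27% to 11.34% in the other 32. These 4 libraries stood apart for several of the genes described here, and results are given with and without them where this changed a value. Lung epithelial markers summed to at least 13110 CPM in every library, most of it Sftpc and Scgb1a1.

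On the GRCm38 build all 10 genes are protein-coding. S100a8 (ENSMUSG00000056054, chromosome 3, 90668978 to 90670035, plus strand) and S100a9 (ENSMUSG00000056071, chromosome 3, 90692632 to 90695721, minus strand) lie 22596 bases apart, and Camp (ENSMUSG00000038357, chromosome 9, 109847379 to 109849617, minus strand) and Ngp (ENSMUSG00000032484, chromosome 9, 110419747 to 110423012, plus strand) lie 570129 bases apart. The others are on chromosomes 1 (Cxcr2 and Il1r2), 4 (Csf3r), 11 (Mpo), 15 (Ly6g) and 16 (Retnlg). Because S100a8 and S100a9 varied together across male mice and Ngp and Camp followed them less closely, as described further on, the sequence before these genes is shown, in the direction of transcription. It is taken from RefSeq promoter windows of GRCm38.p6, which begin 250 bases before the RefSeq start. That start lies inside the annotated gene for S100a8, Ngp and Camp, so that only the bases before the gene bounds given above are printed (157, 250, 189 and 89 for S100a8, S100a9, Ngp and Camp), and the capitals mark matches, on either strand, to TTNNGNAA for C/EBP factors or to GAGGAA for PU.1, transcription factors of the granulocyte lineage.

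S100a8, chromosome 3, 90668821 to 90668977, plus strand: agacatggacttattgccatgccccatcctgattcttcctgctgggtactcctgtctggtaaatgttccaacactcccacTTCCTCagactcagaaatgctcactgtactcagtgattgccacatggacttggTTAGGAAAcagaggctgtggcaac
S100a9, chromosome 3, 90695722 to 90695971, minus strand: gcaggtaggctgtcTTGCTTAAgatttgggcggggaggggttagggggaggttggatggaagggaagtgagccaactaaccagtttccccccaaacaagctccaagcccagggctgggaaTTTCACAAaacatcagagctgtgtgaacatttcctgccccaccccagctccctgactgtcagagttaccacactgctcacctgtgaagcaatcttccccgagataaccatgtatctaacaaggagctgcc
Ngp, chromosome 9, 110419558 to 110419746, plus strand: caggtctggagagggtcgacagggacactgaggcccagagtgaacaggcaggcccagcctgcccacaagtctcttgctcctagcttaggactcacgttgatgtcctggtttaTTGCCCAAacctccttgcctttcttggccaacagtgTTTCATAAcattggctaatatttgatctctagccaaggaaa
Camp, chromosome 9, 109849618 to 109849706, minus strand: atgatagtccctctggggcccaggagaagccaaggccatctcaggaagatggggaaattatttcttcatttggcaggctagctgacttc

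Counted from the annotated start of the gene, S100a8 held a C/EBP match at -24 and a PU.1 match at -77, S100a9 held C/EBP matches at -236 and -130, and Ngp held C/EBP matches at -77 and -41. Camp held neither set of letters. Over the full RefSeq windows of 300 bases, which run on 50 bases past the RefSeq start, each motif was found in 5 of the 10 genes. Of all 32851 such windows 40.7% held the C/EBP letters and 28.3% the PU.1 letters, so that either match is common. A match is a run of letters and not a measured binding site.

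Csf3r was the most abundant of the 10 genes in CPM and Mpo and Camp the least. Per kilobase of exon, the order in male mice was S100a9 (165 CPM per kb on average over 18 mice), S100a8 (109), Csf3r (57.1), Retnlg (27.6), Cxcr2 (13.4), Ngp (3.30), Il1r2 (2.52), Ly6g (0.812), Camp (0.390) and Mpo (0.0365). In female mice the first 5 kept this order except that Retnlg (16.6) stood above Csf3r (13.9), with 47.4 for S100a9 and 39.0 for S100a8. The scarcest genes therefore rest on few reads: Mpo had 48 counts in all 18 female mice together and 47 in the males, Camp 20 and 119, and Ly6g 114 and 313. The summed level of the 10 genes was 266 to 277 CPM in male and 131 to 196 CPM in female saline mice, and the difference between the sexes was not tested.

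**Figure D1:**
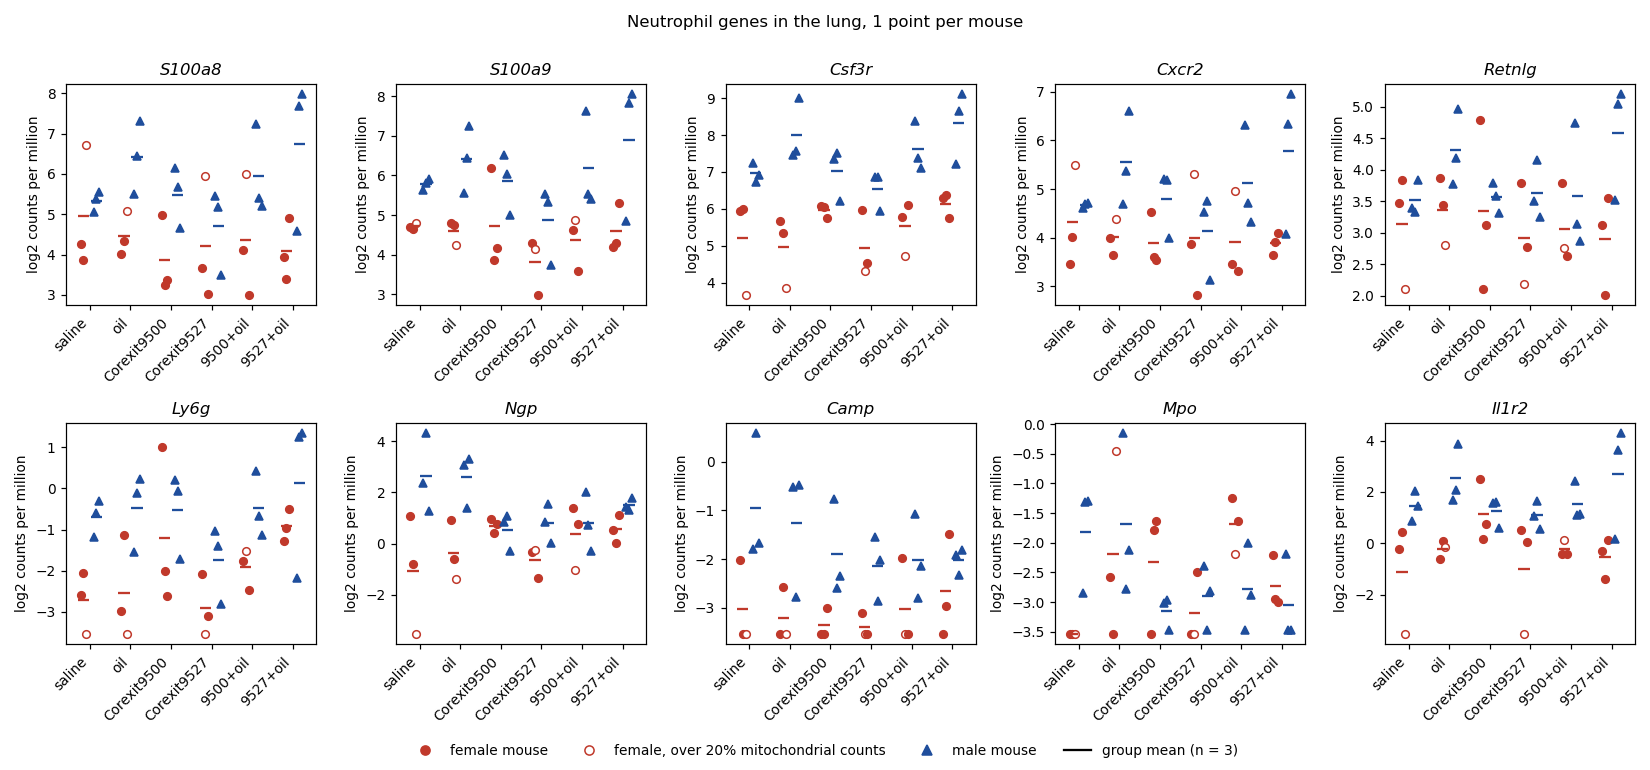
Level of each of the 10 genes in every mouse, as log2 CPM with a prior count of 2, by treatment group, with female mice as circles (open for the 4 libraries over 20% mitochondrial), male mice as triangles and the group mean as a bar. In male mice S100a8, S100a9, Csf3r, Cxcr2, Retnlg, Ly6g and Il1r2 have the same few high points, in oil, 9500+oil and 9527+oil, while Ngp and Camp are highest in 1 saline mouse.

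In male mice the levels differed more between mice of one group than for most genes. There the SD of log2 CPM within groups was 0.66 (Retnlg) to 1.14 (Il1r2 and Ly6g) for the 9 genes that passed the filter on low counts, against a median of 0.20 over all 15519 genes tested, which put them between the 91.8th and the 97.3th percentile. In female mice the same SD ran from 0.72 (S100a9) to 1.40 (Il1r2) over 8 genes, where the median of 15526 genes was already 0.705, so that these genes lay between the 50.8th (S100a9) and the 82.2th percentile (Il1r2) and some varied about as much as the typical gene. Single mice carried this spread. The summed level of the 10 genes was 978 CPM in male oil mouse 6, 802 in 9500+oil mouse 13, and 964 and 1259 in 9527+oil mice 17 and 18, while the other 14 male mice lay between 106 and 430 CPM. The lowest value, 106 CPM, was that of Corexit9527 mouse 12. Female mice lay between 53.8 CPM (Corexit9527 mouse 12) and 231 CPM (Corexit9500 mouse 7).

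S100a8 and S100a9 form calprotectin, an abundant protein complex of the neutrophil cytosol. In male mice S100a8 stood at 33.2, 41.7 and 46.7 CPM with saline, at 45.1, 87.6 and 158 CPM with oil, and at 24.1, 205 and 253 CPM with 9527+oil. Mouse 16 of the 9527+oil group thus lay below every saline mouse and mice 17 and 18 above them all. With 9500+oil the values were 151, 42.5 and 36.6 CPM, with Corexit9500 71.1, 50.8 and 25.0 CPM, and with Corexit9527 43.7, 36.0 and 11.2 CPM. All of these groups overlapped saline. Male S100a9 followed the same mice, with 49.4, 56.1 and 60.3 CPM with saline, 46.9, 87.2 and 152 CPM with oil, and 28.5, 226 and 267 CPM with 9527+oil.

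S100a9 was the gene whose Corexit9527 mice lay below all saline mice in both sexes. The values were 46.3, 40.2 and 13.3 CPM in male mice, with saline at 49.4 to 60.3 CPM, and 19.7, 17.7 and 7.76 CPM in female mice, with saline at 24.9 to 27.9 CPM. Over both sexes the log2 fold change was -0.77 (SE 0.30) and did not pass the test across all genes (adjusted p = 1 in edgeR's quasi-likelihood test with Benjamini-Hochberg adjustment). With 1 mouse left out it stayed between -0.92 and -0.61. S100a8 in the same comparison had a log2 fold change of -0.60 (SE 0.61), which was 0.07 without female saline mouse 3 and -0.52 without the 4 libraries with many mitochondrial counts.

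In female mice S100a8 depended on the libraries with many mitochondrial counts. It stood at 33.8 to 106 CPM in these 4 libraries and at 7.88 to 31.5 CPM in the other 14, with no overlap, whereas S100a9 stood at 17.7 to 29.1 CPM in the 4 and 7.76 to 72.5 CPM in the 14. The ratio of S100a8 to S100a9 was accordingly 1.80 to 3.79 in the 4 libraries, 0.434 to 1.04 in the other female mice and 0.673 to 1.04 in male mice. Female saline mouse 3 alone, with 106 CPM of S100a8 beside 19.0 and 14.5 CPM in the other saline mice, gave oil a log2 fold change of -1.12 (SE 0.87) in female mice, which turned to 0.48 without that mouse. Cxcr2 was also higher in the 4 libraries (by 1.33 in log2 CPM), while Csf3r, Ngp and Il1r2 were lower (by -1.69, -1.91 and -1.87). Ly6g and Retnlg were lower as well (by -1.28 and -0.84), and S100a9 differed by 0.06. The part of the mitochondrial share in these differences was not tested.

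**Figure D2:**
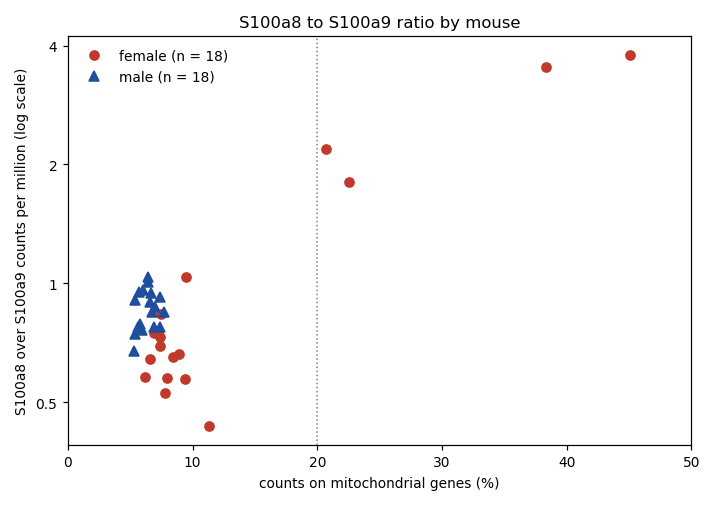
Ratio of S100a8 to S100a9 CPM in each mouse (y axis, log scale) against the share of counts on mitochondrial genes in percent (x axis), with female mice as circles, male mice as triangles and a dotted line at 20%. The 4 female libraries to the right of the line lie at ratios of 1.80 to 3.79, and the other 32 libraries at 0.434 to 1.04.

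Among the receptors, Csf3r binds the growth factor G-CSF, which drives neutrophil production, Cxcr2 binds the chemokines that call neutrophils into tissue, and Il1r2 is a decoy that binds IL-1 without signalling. Male Csf3r stood at 152, 106 and 120 CPM with saline and at 175, 189 and 514 CPM with oil, so that every oil mouse lay above every saline mouse. With 9527+oil it stood at 149, 403 and 553 CPM, with mouse 16 inside the saline range. How many of all genes lay wholly above saline with oil was not counted. The log2 fold change of Csf3r was 1.21 (SE 0.38, adjusted p = 0.43) with oil and 1.54 (SE 0.40, adjusted p = 0.885) with 9527+oil. Without oil mouse 6 the former was 0.53.

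Male Cxcr2 stood at 24.4, 25.8 and 26.2 CPM with saline, 25.8, 41.3 and 96.6 CPM with oil and 16.8, 80.8 and 124 CPM with 9527+oil. Il1r2 was scarce, with 1.74, 3.99 and 2.66 CPM in male saline mice, 3.15, 4.08 and 14.6 CPM with oil and 1.04, 12.4 and 19.7 CPM with 9527+oil. With 9500+oil Cxcr2 stood at 79.7, 26.2 and 19.9 CPM and Il1r2 at 5.31, 2.04 and 2.10 CPM. For both genes oil mouse 6, 9500+oil mouse 13 and 9527+oil mice 17 and 18 were the highest 4 male mice, and 9527+oil mouse 16 lay below saline. In female mice all 3 receptors overlapped saline in every group, and Il1r2 was highest in Corexit9500 mouse 7 (5.55 CPM, against 0 to 1.27 CPM with saline).

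Retnlg is a resistin-like secreted protein of mouse neutrophils and Ly6g the surface protein used to stain them. Both belong to gene families with closely similar members, so that the division of reads among these is uncertain. Male Retnlg stood at 10.4, 9.97 and 14.2 CPM with saline, 13.5, 18.1 and 31.0 CPM with oil and 11.3, 32.7 and 36.7 CPM with 9527+oil. The high mice were those of S100a8, and they stood less far above saline. Male Ly6g ran from 0.348 to 0.723 CPM with saline (7 to 16 counts) and was 2.31 and 2.47 CPM in 9527+oil mice 17 and 18 (42 and 63 counts), whereas mouse 16 of that group, at 0.131 CPM (3 counts), lay below every saline mouse. In female mice Ly6g was 0 to 0.155 CPM with saline (at most 5 counts) and 0.325, 0.428 and 0.618 CPM with 9527+oil (10, 10 and 16 counts). Saline mouse 3 had 0 counts, which at its depth allows up to 0.352 CPM, above the level of the lowest treated mouse. Female Ly6g did not pass the filter on low counts in that comparison. In male mice and over both sexes Ly6g passed the filter with 9527+oil but not with Corexit9527, that is, with the help of the mice in which it was high. Its values are therefore given as a description, and it is left out of the counts of genes at an unadjusted p under 0.05.

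In male mice the granule genes followed the other 7 less closely. Ngp encodes a protein of the secondary granules, Camp the antimicrobial peptide precursor cathelicidin of the same granules, and Mpo the myeloperoxidase of the primary granules. Male Ngp stood at 5.07, 20 and 2.30 CPM with saline, the middle value being that of mouse 2, and at 1.70, 2.03 and 0.716 CPM with Corexit9500, all below saline. It stood at 1.70, 2.83 and 0.931 CPM with Corexit9527, 3.97, 1.55 and 0.730 CPM with 9500+oil, and 2.57, 2.42 and 3.37 CPM with 9527+oil. The male oil mice, at 8.39, 2.51 and 9.88 CPM, lay inside the saline range. Of the 4 male mice highest in the summed level, oil mouse 6 had 9.88 CPM of Ngp, while 9500+oil mouse 13 and 9527+oil mice 17 and 18 lay at 2.42 to 3.97 CPM, within the saline range.

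The log2 fold changes of male Ngp against saline were -2.62 (SE 0.74) with Corexit9500, -2.31 (SE 0.76) with Corexit9527, -2.13 (SE 0.80) with 9500+oil and -1.70 (SE 0.68) with 9527+oil, with adjusted p values of 0.755, 0.231, 0.515 and 0.885. Saline mouse 2 carried much of their size, and without it they were -1.31, -1.0, -0.82 and -0.40. Camp had 27 counts in the same saline mouse, 4 and 5 in the other 2 and at most 18 in any other male mouse, and its 9527+oil mice (0.110 to 0.196 CPM) lay just below saline (0.199 to 1.42 CPM). Mpo was near its detection limit: it had 0 counts in all 3 female saline mice, which allows up to 0.122, 0.0929 and 0.352 CPM there (3 counts in each library, counting error only), and at most 16 counts in any mouse. It passed the filter in no comparison.

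Each treatment was compared with saline within each sex, 3 mice against 3, to ask whether exposure moved the genes. None of the 10 passed an adjusted p of 0.05. In female mice 7 genes were tested in each comparison (all but Ly6g, Camp and Mpo). At an unadjusted p under 0.05 the count was 0 in all 5 female comparisons, where 0.108% of all genes reached it with oil, 0.364% with Corexit9500, 0.267% with Corexit9527, 0.155% with 9500+oil and 1.1% with 9527+oil, and 0% passed the adjusted threshold in each. The lowest adjusted p of these genes was 1 with each treatment other than 9527+oil, where it was 0.914. Their female log2 fold changes had standard errors of 0.31 to 1.66, and changes well above these errors could also go uncalled. In male mice a change of 1.54 with an SE of 0.40 (Csf3r with 9527+oil) did not pass in the same test (adjusted p = 0.885).

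In male mice more of the genes stood out before adjustment, and the set differed by treatment. The counts are of the 7 genes that passed the filter in every comparison, as Ly6g and Camp passed it in only some and Mpo in none. With oil 5 of the 7 had an unadjusted p under 0.05, against 8.21% of all genes (0.00671% adjusted). All 5 were higher: S100a8 (1.25, SE 0.38), Csf3r (1.21, SE 0.38), Cxcr2 (1.09, SE 0.40), Retnlg (0.85, SE 0.29) and Il1r2 (1.38, SE 0.58). Their lowest adjusted p was 0.409. Oil mouse 6 carried much of this: without it the 5 log2 fold changes were 0.71 for S100a8, 0.53 for Csf3r, 0.40 for Cxcr2, 0.46 for Retnlg and 0.37 for Il1r2. With Corexit9500 it was 1 of 7, Ngp, against 6.35% of genes (0.00662% adjusted), and with Corexit9527 1 of 7, again Ngp, against 13.7% (0.114% adjusted). With 9500+oil it was 2 of 7, Csf3r higher (0.76, SE 0.29) and Ngp lower, against 9.22% (0% adjusted). Csf3r stood at 335 CPM in 9500+oil mouse 13 and at 166 and 139 CPM in mice 14 and 15, with saline at 106 to 152 CPM. With 9527+oil the count was 7 of 7, against 5.54% (0.00669% adjusted). The genes vary together across mice, as shown further on, and are not separate pieces of evidence.

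The 9527+oil comparison in male mice had the largest log2 fold changes for S100a8 (1.98, SE 0.67), Il1r2 (1.98, SE 0.81), S100a9 (1.65, SE 0.63), Ly6g (1.55, SE 0.84), Csf3r (1.54, SE 0.40), Cxcr2 (1.53, SE 0.56) and Retnlg (1.21, SE 0.38) among the 5 male comparisons with saline, with Ngp at -1.70. The median over the 7 genes without Ly6g, which passed the filter in only some comparisons, was 1.54, against 0.00 over all genes tested. All of these had an adjusted p of at least 0.885. That none passed rested on mouse 16. Without it, S100a8, S100a9, Csf3r, Cxcr2, Retnlg and Il1r2 passed, with adjusted p values of 0.00172 to 0.0303 and log2 fold changes of 1.58 (Retnlg) to 2.52 (Il1r2). The share of all genes that passed in that fit is not given here, so these calls are not read as particular to these genes. Without mouse 18 the same 6 log2 fold changes were 0.93 to 1.49, and they did not pass. Mouse 16 had 23004051 counts with 7.68% of them mitochondrial, beside 18119021 (5.4%) and 25885686 (5.7%) in mice 17 and 18, and the labels do not set it apart.

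**Figure D3:**
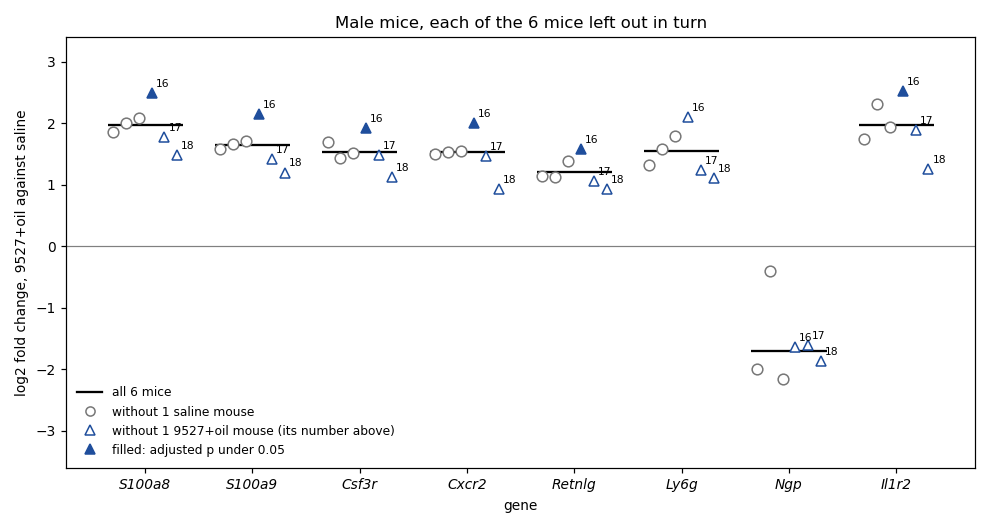
Log2 fold change of 8 genes in male 9527+oil against saline mice (y axis) with all 6 mice (black bars) and with each mouse left out in turn, circles for a saline mouse and triangles, with the mouse's number, for a 9527+oil mouse. Filled symbols have an adjusted p under 0.05 and occur only without mouse 16, for 6 of the genes. Ngp moves from -1.70 to -0.40 without 1 saline mouse, which is mouse 2.

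**Figure D4:**
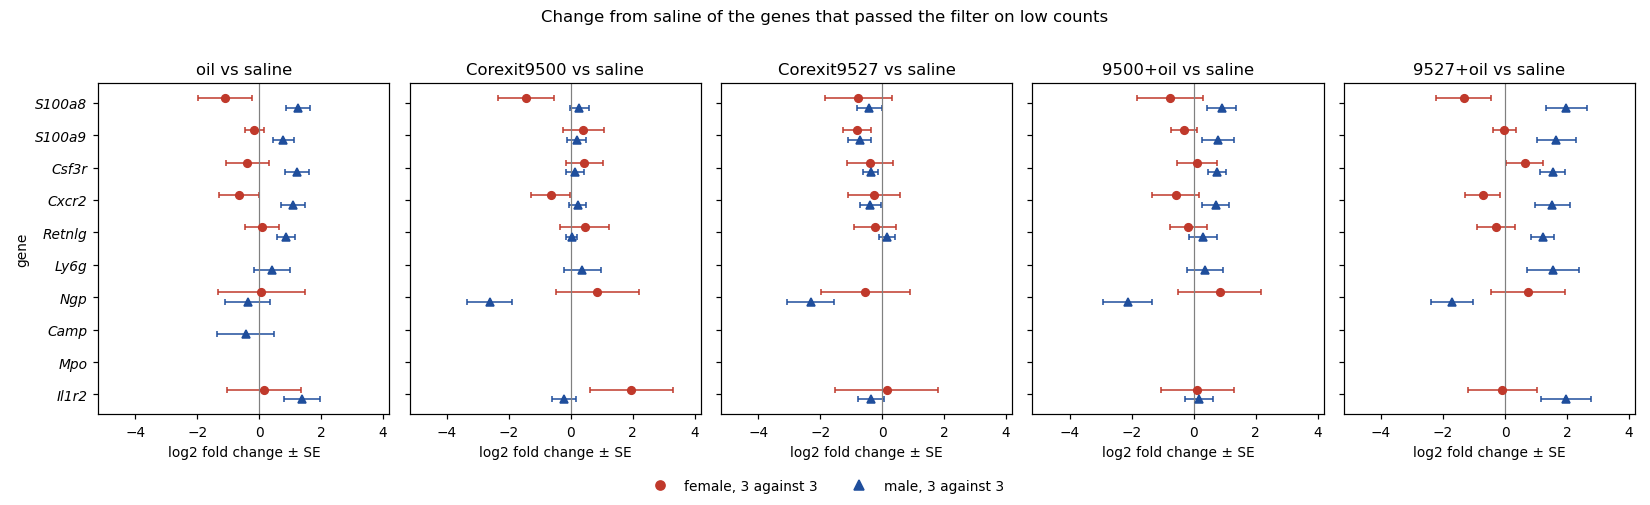
Log2 fold change of each gene against saline for the 5 treatments, with its standard error, in female (circles) and male mice (triangles), 3 mice against 3. Genes that did not pass the filter on low counts have no symbol. The male values of oil and 9527+oil lie above 0 for most genes with Ngp below it, the male Corexit9527 values lie mostly below 0, and no value passed an adjusted p of 0.05.

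With both sexes in 1 fit and sex as a term in the fit, 6 treated mice were compared with 6 saline mice. Again the count at an adjusted p of 0.05 was 0 for every treatment. At an unadjusted p under 0.05 there were, of the 7 genes that passed the filter in every comparison (all but Ly6g, Camp and Mpo), 0 with oil (0.442% of all genes, 0% adjusted), 0 with Corexit9500 (2.3% and 0%), 1 with Corexit9527 (2.86% and 0.0326%), 0 with 9500+oil (0.418% and 0%) and 1 with 9527+oil (2.99% and 0%). The gene with Corexit9527 was S100a9, that with 9527+oil Csf3r (1.09, SE 0.41). With Corexit9527 all 7 genes tested had a negative log2 fold change, with a median of -0.38 against 0.01 over all genes. These signs were not stable for 4 of the 7. Without female saline mouse 3 S100a8 went from -0.60 to 0.07 and Cxcr2 from -0.32 to 0.03, although without all 4 libraries with many mitochondrial counts they were -0.52 and -0.36. Retnlg (-0.05) and Il1r2 (-0.12) turned positive when any of several single mice was left out.

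Whether the change from saline differed between the sexes was tested as an interaction, in which a positive value is a larger change in male mice. None passed an adjusted p of 0.05, the lowest being 0.948. Before adjustment, the counts of the 7 genes that passed the filter in every comparison were as follows. With oil it was 1 (S100a8, 2.27, SE 1.02, against 1.65% of genes, 0% adjusted) and with Corexit9500 1 (Ngp, -3.43, SE 1.47, against 0.726% and 0%). With Corexit9527 it was 0 (0.352% and 0%) and with 9500+oil 0 (0.509% and 0%). With 9527+oil it was 2, S100a8 (3.30, SE 1.26) and Cxcr2 (2.23, SE 0.92), against 2.39% and 0%. Female saline mouse 3, the library with the most mitochondrial counts, entered each of these differences. Without it the S100a8 interaction was 0.77 with oil and 1.82 with 9527+oil, and that of Cxcr2 1.41 with 9527+oil. The Ngp interaction with Corexit9500 was -2.13 without male saline mouse 2.

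Oil added to a dispersant was compared with that dispersant alone over both sexes. With 9500+oil against Corexit9500, 0 of the same 7 genes reached an unadjusted p under 0.05 (1.95% of all genes, 0% adjusted) and 4 were higher. With 9527+oil against Corexit9527 all 7 were higher, with a median log2 fold change of 0.97 against 0.01 over all genes. Here 3 reached an unadjusted p under 0.05, against 14.1% of all genes (0.559% adjusted): S100a9 (1.60, SE 0.57, adjusted p = 0.281), Csf3r (1.48, SE 0.39, adjusted p = 0.148) and Ngp (0.97, SE 0.36, adjusted p = 0.291). Every male 9527+oil mouse had more Csf3r (149 to 553 CPM) than every male Corexit9527 mouse (61.2 to 115 CPM), whereas the female mice overlapped (54.3 to 82.1 against 19.9 to 62.1 CPM). Without female Corexit9527 mouse 11, the only one of the 4 libraries with many mitochondrial counts in this comparison, Csf3r passed (1.39, adjusted p = 0.0475). How many of all genes passed without that mouse is not given here.

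Asked as a single test of any difference among the 6 groups, 0 genes passed in either sex. Of the 7 genes that passed the filter in every comparison, 0 had an unadjusted p under 0.05 in female mice (1.35% of all genes, 0.0129% adjusted). In male mice it was 4 of these 7 (10.4% of all genes, 0.135% adjusted), namely Ngp (adjusted p = 0.252), Csf3r (0.268), Il1r2 (0.373) and S100a8 (0.437). Differences between group means accounted for 53.7% of the variance of male Csf3r, 52.1% of that of Ngp and 27.0% to 37.6% of that of S100a8, S100a9, Cxcr2, Retnlg, Ly6g and Il1r2, where the median over all genes tested was 30.9%.

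Across the 18 male mice the 7 genes other than Ngp, Camp and Mpo varied together. All 21 pairs among them had a positive Pearson r past an adjusted p of 0.05 (permutation test, Benjamini-Hochberg over 90 pairs of both sexes), with r from 0.75 (Retnlg with Ly6g) to 0.99 (S100a8 with S100a9) and a median of 0.91. Spearman's rho was 0.71 to 0.96, and r without the 2 mice farthest from the median was 0.57 to 0.98. For S100a8 with S100a9 rho was 0.95, and both p values were 1e-05, the smallest that 100000 resamples can give. With the group means subtracted r was 0.83 to 1.00, so that the genes varied together among mice of 1 treatment. Among the 14 male mice below the gap at 430 to 802 CPM in the summed level, a subset taken after the values were seen, all 21 values of r were positive, from 0.31 to 0.97 with a median of 0.74.

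Ngp and Camp followed these 7 less closely across the 18 male mice. Of their 14 pairs with them 0 passed, with r between 0.09 and 0.45. Camp had only 119 counts over these mice, and the part of counting error in its r was not tested. Among the 14 male mice below the gap, 12 of these pairs had a positive r, from -0.08 to 0.52 over all 14 with a median of 0.23, a range that overlaps that of the pairs among the 7. Ngp and Camp had an r of 0.71 with each other (rho 0.53, adjusted p = 0.0037 for r and 0.076 for rho, permutation test), and of 0.42 without the 2 mice farthest from the median, saline mouse 2 being the highest in both genes.

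In female mice the pattern depended on the 4 libraries with many mitochondrial counts. Over all 18 mice 6 of the 21 pairs were positive and 2 negative past an adjusted p of 0.05 by Pearson's r, the negative being S100a8 with Csf3r (r = -0.67, rho = -0.56) and Csf3r with Cxcr2 (r = -0.56, rho = -0.36). By Spearman's rho neither negative pair passed (adjusted p 0.058 and 0.3, permutation test) and of the 6 positive pairs S100a8 with Cxcr2 (0.00084) and Csf3r with Ly6g (0.021) did. Without the 4 libraries the r of the negative pairs was 0.14 and 0.56, and 8 pairs passed by Pearson's r, all positive. By Spearman's rho 6 of these 8 did not pass (adjusted p 0.074 to 0.26), and without the 2 farthest mice r was 0.31 to 0.35 for the 3 pairs with Ly6g. S100a8 with S100a9 had an r of 0.92 and a rho of 0.93, and r was 0.87 without the 2 farthest mice. Over all 18 female mice Csf3r with Ngp had an r of 0.78 (rho 0.51, adjusted p = 0.0009 for r and 0.096 for rho, permutation test), and an r of 0.50 without the 4 libraries. Corexit9500 mouse 7 was the highest female mouse for S100a9, Retnlg, Ly6g and Il1r2.

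**Figure D5:**
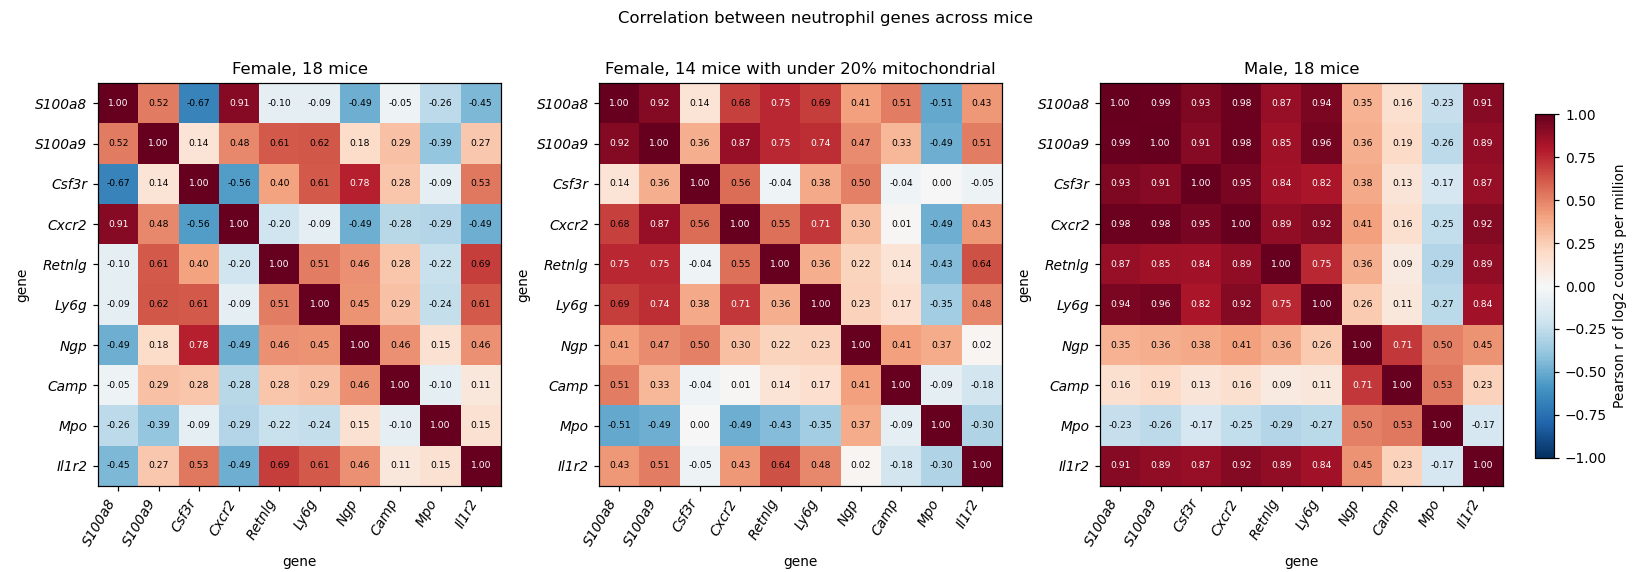
Pearson r of log2 CPM between each pair of the 10 genes across female mice (left), female mice without the 4 libraries over 20% mitochondrial (middle) and male mice (right). In male mice 7 genes form a block with r of 0.75 to 0.99, from which Ngp, Camp and Mpo stand apart, and the negative values of S100a8 and Cxcr2 with Csf3r in female mice (-0.67 and -0.56) are absent from the middle panel. Camp and Mpo rest on 119 and 47 counts over the male mice, and the part of counting error in their r was not tested.

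The genes whose pattern over mice was most like the mean of the tested members were, of 15251 genes tested in both sexes, Fcer1g (smaller r of the sexes 0.71), AB124611 (0.69), Plac8 and Trem3 (0.68), Lsp1, Ly6c2 and Lst1 (0.65) and Pilrb2 (0.64). Fcer1g is the signalling chain of Fc receptors, and Ly6c2 is a marker of inflammatory monocytes as well as of some neutrophils. These are descriptions over 18 mice a sex, with no test.

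Further genes of the neutrophil were read from lists. Of the 4 genes of the primary granules (Elane, Prtn3, Ctsg and Ms4a3), Prtn3 alone passed the filter, at 0.137 to 1.19 CPM in male mice, and none passed the adjusted threshold. Of the 7 secondary and tertiary granule genes, 1 passed in 1 comparison: Lcn2, the iron-binding lipocalin that airway epithelium also makes. It stood at 126 to 150 CPM in male saline mice and 265, 432 and 329 CPM with Corexit9527 (log2 fold change 1.31, SE 0.17, adjusted p = 0.0468), and at 480, 320 and 543 CPM with oil (1.69, SE 0.18, adjusted p = 0.0823). All 3 mice of both groups lay above saline. With 1 mouse left out the adjusted p for Corexit9527 was 0.0195 to 0.214, passing in 2 of 6 cases, so that the call rests on having every saline mouse and on Corexit9527 mouse 11 (0.051 without it). In the 5 other settings it passed (3.31e-11 to 0.0467), and oil passed in 1 of 6 cases with 1 mouse left out (0.00521 to 0.334) and in 3 of 5 other settings (1.19e-16 to 0.0953). Of the 17 surface and effector genes none passed. With male 9527+oil all 17 were higher, with a median log2 fold change of 0.88 against 0.00 over all genes, and 8 had an unadjusted p under 0.05 (5.54% of all genes). With male oil 16 were higher (median 0.72) and 8 had such a p (8.21% of all genes). Padi4, which modifies histones in neutrophil traps, had log2 fold changes of 1.36 (SE 0.30) and 1.12 (SE 0.31), and the surface protein Cd177 of 0.88 (SE 0.40) and 1.02 (SE 0.21). Of the 4 transcription factors none passed, with Spi1, the gene of PU.1, at 0.71 (SE 0.17) with male oil and Cebpa at 0.35 (SE 0.14) with male 9527+oil.

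Among 13 ligands and growth factors that act on neutrophils none passed. The nearest was the lung chemokine Cxcl15 with Corexit9527 in male mice (0.65, SE 0.11, adjusted p = 0.0558), a comparison in which 6 of the 7 members tested had a negative log2 fold change and Retnlg one of 0.15 (SE 0.25). Cxcl15, at 1025 to 2120 CPM in male mice, makes up nearly all of the summed level of the list. Il1b, the next most abundant, ran from 5.07 to 69.7 CPM in male mice with a median of 17.4 CPM. The IL-1 receptor list (3 genes) had none past the threshold, with Il1rn, the antagonist of IL-1, at 1.23 (SE 0.27, adjusted p = 0.273) with oil and 0.87 (SE 0.22, adjusted p = 0.153) with Corexit9527 in male mice.

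Markers of other cells that lung RNA holds were read beside these results. For the 9 monocyte genes none passed, Ly6c2 had log2 fold changes of 0.71 (SE 0.22) with oil and 0.69 (SE 0.23) with 9527+oil in male mice, and their summed level was highest in male oil mouse 6 (2827 CPM) and 9527+oil mouse 18 (2750 CPM), against 2151 to 2342 CPM with saline. Most of that sum is Ace (1576 to 2087 CPM in male mice), which lung endothelium also expresses. Of the 10 alveolar macrophage genes Itgax passed the test among the 6 male groups (adjusted p = 0.0492), and their sum was 754 to 967 CPM in male saline, 1083 to 1161 CPM in oil, 986 to 1803 CPM in Corexit9527 and 622 to 981 CPM in 9527+oil mice. In female mice it was 784 to 1109 CPM with saline and 1400 to 2364 CPM with Corexit9527, so that in both sexes the Corexit9527 mice, whose S100a9 lay below saline, lay above saline in this sum. The sum is led by Chil3, a chitinase-like secreted protein, whose highest levels were those of Corexit9527 mice in both sexes (1770 CPM in a female and 1192 CPM in a male mouse). The Itgax call was lost in 14 of the 18 cases with 1 mouse left out (adjusted p 0.0206 to 0.11) and held in the 4 other settings (2.29e-07 to 0.0466). The red cell sum, in which the globins Hba-a2, Hbb-bs and Hba-a1 lead, was 2723 to 6797 CPM with Corexit9527 and 7540 to 12540 CPM with saline in male mice, and Hba-a1 had a log2 fold change of -1.16 (SE 0.27, adjusted p = 0.135) there. The part of blood left in the lung, and of these other cells, in the levels of the neutrophil genes was not tested.

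No gene passed for eosinophils, basophils and mast cells (8 genes), platelets (7), B cells (4), T and NK cells (7), lung epithelium (7), endothelium (4) or fibroblasts (3). In the test among the 6 male groups the adjusted p was 0.0719 for Col1a2 and 0.206 for Col1a1, the chains of type I collagen, and lay above 0.2 for Cldn5 (0.211) and Cdh5 (0.46) of endothelium, Epcam (0.212) and Sftpb (0.473) of epithelium and Itga2b (0.513) and Gp9 (0.542) of platelets. For Ccr3, Cpa3, Ms4a1, Ncr1 and Gzma it was 0.638 to 0.981. Of the lists above it was 0.268 for Il1a, 0.194 for Il1r1, 0.31 for Cx3cr1 and 0.431 for Hbb-bs. In female mice the adjusted p of each of these genes was 1. In male 9527+oil mice, where the neutrophil genes differed most, the medians of these lists lay between -0.33 (B cells) and 0.33 (eosinophils, basophils and mast cells, 3 genes tested). The eosinophil, basophil and mast cell genes summed to at most 7.03 CPM in male mice. In the 4 female libraries with many mitochondrial counts the red cell sum was 365 to 1035 CPM, against 2971 CPM or more in the other 14 female libraries, beside their low Csf3r.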

How the data were processed

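Total RNA of the left lung of 36 mice was sequenced, and the labels name Salmon and the GRCm38 build. The authors deposited 1 table a sex of estimated counts, gathered with tximport. The study's methods name transcripts as rows, whereas the deposited rows carry gene symbols and whole numbers, and the step between is not given in the sources used here. No row sums to under 10, 24 rows a table are named by a date, and 4 rows a table that share a name were left out (0.0103% and 0.0128% of counts). Counts were tested with edgeR 4.0.16 (R 4.3.3, limma 3.58.1): TMM scaling, filterByExpr by group, the quasi-likelihood F test and Benjamini-Hochberg adjustment over all genes that passed the filter, with a threshold of 0.05. The SE is the log2 fold change over the square root of F. CPM used TMM over the 18 mice of a table, log2 CPM a prior count of 2, and levels per kb the exon length of GENCODE annotation. Fits covered each treatment against saline within a sex, over both sexes with sex as a term, the interaction, any difference among 6 groups, and dispersant with oil against dispersant. The comparisons with saline share the same saline mice. The p-values of the fits measure the spread between mice left after the terms of each fit, with 3 mice a group within a sex and 6 over both sexes. Those of the correlations come from permuting the mice of a sex. Total counts of 17501180 to 30011557 limit genes with few reads. The 10 genes and the 16 gene lists (115 genes, 107 in both tables) were chosen with earlier results of these data known. All 10 were named, and of each list the genes past the threshold or else the 2 with the smallest p in the test of 6 groups of either sex, of which 1 gene is not reported here. Alternatives were DESeq2 1.42.0, its size factors in edgeR, other filters, each mouse left out, the 4 female libraries left out, 1 fit of all groups, no sex term and a replicate block. The correlation without 4 male mice was added after seeing the data. The tests were checked on simulated counts with the same small spread between mice for every gene and with changes set in well-counted genes only. That check does not cover genes as variable or as scarce as the 10 described here.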

Additional observations from a re-analysis of the deposited data

How the results depend on the processing

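The absence of calls among the 10 genes held in most but not all alternatives. With 1 mouse left out, the number called in male 9527+oil against saline ranged from 0 to 6, the 6 being without 9527+oil mouse 16, and in 9527+oil against Corexit9527 from 0 to 1, the 1 being without female Corexit9527 mouse 11. DESeq2 called 1 gene, Ngp, among the 6 male groups and 2 genes, Csf3r (adjusted p = 0.00834) and Ly6g (0.0189), in 9527+oil against Corexit9527, of which Ly6g passed the filter there with the help of the mice in which it was high and counts as a description only. Leaving out the 4 libraries over 20% mitochondrial is the same fit there as leaving out mouse 11, and called the same 1 gene, Csf3r. The share of all genes called under each setting is not given beside these counts, so they are not read as particular to the 10 genes. The causes of these differences between settings were not tested. Over 240 fits with 1 mouse left out and 139 other fits, 10 of 2562 alternative values of the 171 log2 fold changes passed the threshold, with that fit counted under both settings, and 184 had another sign, none of a fold change over 1.94 times its standard error. Without the 4 libraries the female r was 0.14 for S100a8 with Csf3r, 0.75 for S100a8 with Retnlg, 0.69 for S100a8 with Ly6g, 0.56 for Csf3r with Cxcr2 and 0.71 for Cxcr2 with Ly6g, each negative over 18 mice, while Csf3r with Retnlg went from 0.40 to -0.04 and Csf3r with Il1r2 from 0.53 to -0.05. Mouse numbers are shared by the sexes but mark different mice treated separately, so that they pair nothing. With the number as a replicate block the interaction fits called 0 genes for each of the 5 treatments. The scarce genes Camp, Mpo and female Ly6g are limited by depth.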
